A study of Mus musculus with 25 samples.

Results

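The 10 genes described here encode the enzymes that make, desaturate and lengthen fatty acids in mouse myeloid cells: the desaturases Fads1, Fads2, Fads3, Scd1 and Scd2, the elongases Elovl1, Elovl5 and Elovl6, and the 2 enzymes at the start of synthesis, Acly and Fasn. They were chosen by gene symbol, and all 10 were found among the 38087 genes of each of the 2 deposited tables, 1 for leukocytes sorted from injured muscle and 1 for cultured macrophages. All mice were male C57BL/6J with no genetic change named in the labels. For the muscle groups, adult mice of 2 to 4 months had 50 µl of cardiotoxin, a venom protein that destroys muscle fibres, put into the tibialis anterior. CD45+ leukocytes were then separated by their surface stain. Macrophages that were Ly6Chigh and F4/80low gave 3 samples on day 2 and 2 on day 4, as did those that were Ly6Clow and F4/80high. Neutrophils, which were Ly6Ghigh, gave 3 samples on day 1. For the culture, bone marrow of mice aged 8 to 10 weeks was grown for 7 days in macrophage colony-stimulating factor (M-CSF), replated without it, and 24 h later either left untreated (3 libraries) or given 10 nM resolvin D2 (RvD2) for 4 h (3 libraries). RvD2 is a mediator that cells make from docosahexaenoic acid, an omega-3 fatty acid. For the cultured libraries the labels also give an age of 2 to 4 months, beside the 8 to 10 weeks of the marrow donors. The labels name no vehicle for the untreated cells and do not say whether samples came from separate animals or cultures. The Ly6Chigh day 1 and blood monocyte samples, 6 in all, were not analysed here.

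Acly splits citrate into acetyl-CoA, and Fasn joins such units into palmitate. Elovl6 lengthens palmitate to stearate, Scd1 and Scd2 put a double bond into saturated chains to give oleate and palmitoleate, and Elovl1 lengthens saturated and monounsaturated chains to very long ones. Fads2, Elovl5 and Fads1 act in turn on dietary linoleate and alpha-linolenate to give arachidonate and eicosapentaenoate, from which lipid mediators are made. Fads3 is a relative of Fads1 and Fads2 that acts on sphingoid bases and vaccenate. Many of these genes are targets of SREBP-1c, a membrane-bound factor released by proteolysis, and of the oxysterol receptor LXR, and macrophages are known to use both in the turn from inflammation to its resolution.

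The members lie in 7 places on the GRCm38 (mm10) assembly, in the GENCODE M21 annotation. Fads3 (chr19:10041569-10060110), Fads2 (chr19:10062765-10101746) and Fads1 (chr19:10182888-10196877) lie close together, and so do Scd2 (chr19:44293674-44306864) and Scd1 (chr19:44394455-44407879). Acly is at chr11:100476353-100528000 and Fasn at chr11:120805846-120824547. Elovl6 is at chr3:129532355-129638495, Elovl1 at chr4:118428093-118432953 and Elovl5 at chr9:77917364-77984519. All 10 are annotated as protein-coding genes. Exons of Elovl1 overlap those of Cdc20, a cell division gene on the opposite strand, and the counting is not stated to use strand, so reads in the overlap cannot be told apart. Of all 50-base stretches of their exons, Scd1 shares 4.56% and Scd2 3.97% with each other or with Scd3 and Scd4, so reads there could be split between them. Elovl6 shares 3.98% with Gm11295, Trim12c, Tanc2 and Cdk15, and Elovl1 shares 0.139% with Cdc20.

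RefSeq promoter windows on GRCm38.p6 matched 7 of the 10 members, with 8 windows, since Elovl1 has 2. The 250 bases before the start were searched on both strands for TCACNCCAC (a sterol element), CCAAT (the NF-Y box), GGGCGG (the Sp1 box) and an LXR element (AGGTCA repeated after 4 bases of any kind). The next 3 sequences are shown because Fasn was closest to the RvD2 threshold among the members with a window, Fads3 was the one member with a window that was called between days, and Acly had the highest or second highest level everywhere. They are written 5′ to 3′ on the strand of the gene, with CCAAT and GGGCGG or their reverse complements in capitals.
Fasn: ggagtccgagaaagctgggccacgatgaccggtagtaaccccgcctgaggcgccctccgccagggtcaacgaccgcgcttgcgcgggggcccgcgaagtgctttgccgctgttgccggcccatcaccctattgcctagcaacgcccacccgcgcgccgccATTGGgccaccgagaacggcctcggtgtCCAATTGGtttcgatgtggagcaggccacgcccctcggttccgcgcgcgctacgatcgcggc
Acly: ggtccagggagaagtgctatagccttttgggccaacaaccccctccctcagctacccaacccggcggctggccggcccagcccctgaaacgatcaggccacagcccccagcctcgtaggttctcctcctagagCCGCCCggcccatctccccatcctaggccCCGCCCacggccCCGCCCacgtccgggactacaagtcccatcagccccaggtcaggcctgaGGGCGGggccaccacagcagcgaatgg
Fads3: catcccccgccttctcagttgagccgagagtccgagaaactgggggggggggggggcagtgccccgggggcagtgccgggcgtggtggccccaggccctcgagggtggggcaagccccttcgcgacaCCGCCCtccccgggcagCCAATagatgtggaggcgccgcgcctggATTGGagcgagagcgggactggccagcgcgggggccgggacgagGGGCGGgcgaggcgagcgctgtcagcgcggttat
These are chr11:120824548-120824797 (minus strand), chr11:100528001-100528250 (minus strand) and chr19:10041298-10041547 (plus strand). Fasn holds 3 CCAAT boxes, 2 of them overlapping as CCAATTGG, Acly holds 4 GGGCGG boxes, and Fads3 holds 2 of each. Elovl5 holds 2 CCAAT boxes, the first Elovl1 window holds 1 CCAAT and 5 GGGCGG boxes 1 of which overlaps its CCAAT box, the second Elovl1 window holds 2 GGGCGG boxes, and Elovl6 holds none of the 4 motifs. Fads2 holds 1 GGGCGG box. Only the first 7 of its 250 bases lie before an annotated exon of Fads2 itself, and the box lies after these. CCAAT was in 33.8% and GGGCGG in 32.7% of all 32817 windows. The sterol letters (1.05% of windows) and the LXR letters (0.0152%) were in none of the 8 member windows, which says only that these letters are not there.

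In muscle the deposited value is the authors' mean of log2 normalised read counts over the samples of a group, so it has no replicate error and no test was possible. Ratios were taken after adding 10 to each group's normalised count, and a gene was called different when the ratio reached 2-fold and the higher group was at 50 or more. The 6 macrophage markers sum to between 185981 and 304125 normalised counts in the macrophage groups and to 100767 in neutrophils, where Itgam is at its highest (log2 level 15.86). Ly6g is at 0 in each macrophage group and at a log2 level of 7.20 in neutrophils. It is the only one of the 7 neutrophil markers at 0 in those groups. The 7 sum to between 2214 and 2998 there and to 343547 in neutrophils, with Csf3r at log2 levels of 10.36 to 11.40 in the macrophage groups. Ly6Chigh cells at day 4 stand apart by transcripts of other cells. The 8 fibroblast markers sum to 24802 there, against 255 in Ly6Chigh cells at day 2, 82.4 in Ly6Clow cells at day 2 and 1779 in Ly6Clow cells at day 4. All 8 reach 50 in Ly6Chigh cells at day 4 (Col1a1 at a log2 level of 12.85, Pdgfra at 6.60). The 5 dendritic cell markers sum to 1787 and the 5 T and NK cell markers to 709 in that group, against at most 109 and 18.6 in the other macrophage groups. The 6 adipocyte markers, of a cell type rich in Scd1 and Fasn, sum to at most 1.04 in the macrophage groups, with Adipoq, Plin1, Cidec and Lep at 0 in all 4.

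Per kilobase of exon, Acly, Elovl1 and Elovl5 were the highest members in Ly6Chigh cells at day 2, at 518, 413 and 272 normalised counts. Scd2 followed at 117, Fasn at 62.0 and Fads1 at 49.8. Elovl6 (9.9), Fads3 (6.6), Scd1 (2.5) and Fads2 (0.8) were low. By day 4 in Ly6Clow cells the order had Elovl1 at 437, Acly at 413, Scd2 at 272, Fads1 at 247 and Elovl5 at 182.5 normalised counts per kilobase. Fads1 was thus above Elovl5 in that group and well under it in Ly6Chigh cells at day 2. Scd2 was far above Scd1 in each muscle group, and Scd1 stayed at or under 11.1 normalised counts per kilobase. With 1 value a group, no 2 neighbours in these orders can be tested.

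**Figure D1:**
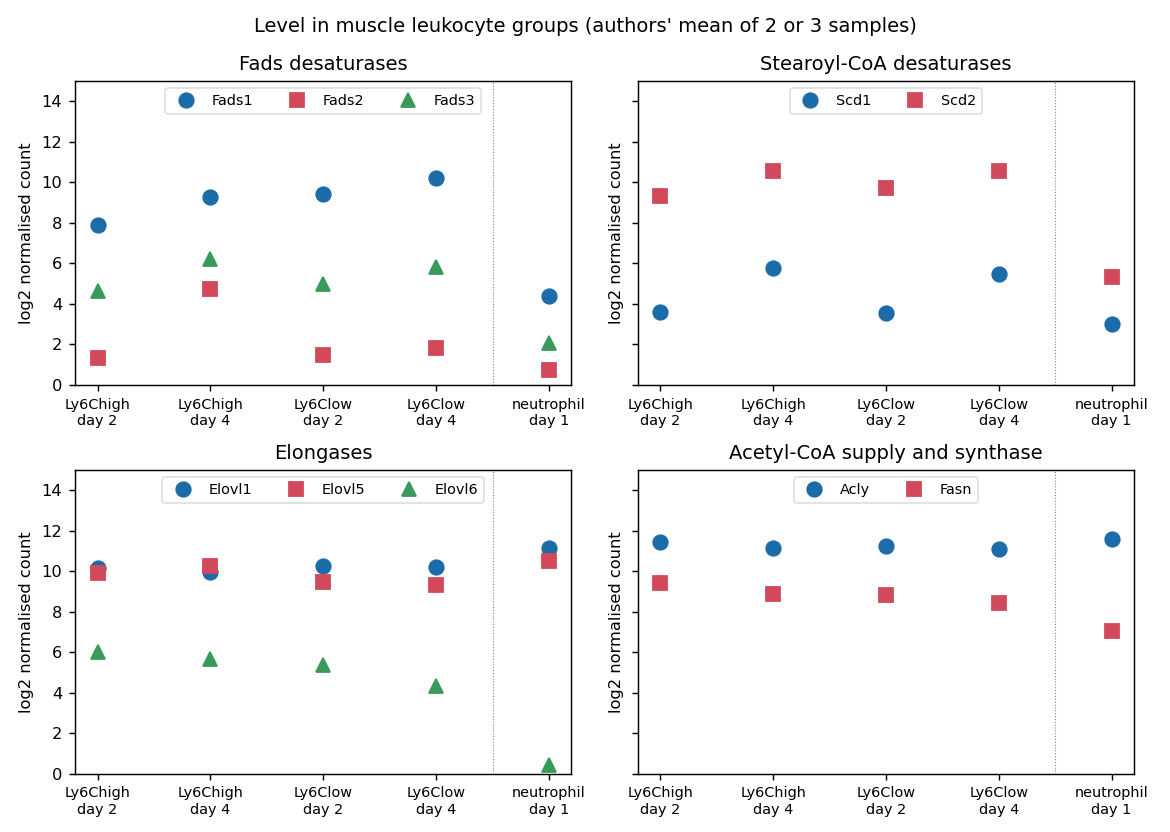
Log2 normalised count (vertical axis, linear in log2) of the 10 genes in the 5 muscle groups (horizontal axis), 1 panel for each kind of enzyme. Each point is the authors' mean over the 2 or 3 samples of a group and has no error. Fads1 goes from 7.90 in Ly6Chigh cells at day 2 to 10.21 in Ly6Clow cells at day 4, while Acly stays between 11.09 and 11.58 in all groups.

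Between day 2 and day 4 all 5 desaturases were higher in Ly6Chigh cells, beside 48.8% of all genes that were higher by any amount, and 4 of the 5 were called. Fads1, the delta-5 desaturase, had log2 levels of 7.90 at day 2 and 9.27 at day 4, a 2.52-fold ratio (log2 ratio 1.33). Scd2, which makes monounsaturated chains, went from 9.32 to 10.55 (2.32-fold), and Scd1 from 3.62 to 5.77 (2.89-fold). Fads3 went from 4.64 to 6.20 (2.39-fold). These 4 of the 9 members at 50 or more compare with 13.4% of 11618 genes called in this comparison, 9.67% of them higher at day 4. Fads2, the delta-6 desaturase that starts the polyunsaturated series, went from a log2 level of 1.32 to 4.75 with a log2 ratio of 1.56, but it reached only 26.9 normalised counts and so could not be called. In a sorted bulk sample, a difference in the mix of cells and a difference in the RNA of each cell cannot be told apart. The markers of fibroblasts, dendritic cells and T and NK cells are highest in the same group, and their part in these differences was not tested. Scd1 (54.4 normalised counts) and Fads3 (73.5) were close above the limit of 50 at day 4, and both are lost as calls when 50 is added in place of 10 or when 200 is asked of the higher group.

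The elongases and synthesis enzymes did not share this pattern. In Ly6Chigh cells Elovl5, which lengthens the products of Fads2, had log2 levels of 9.90 at day 2 and 10.25 at day 4 (log2 ratio 0.35). Elovl1 had 10.14 and 9.95 (log2 ratio -0.19), Elovl6 5.99 and 5.67 (-0.27) and Acly 11.42 and 11.13 (-0.29). Fasn was lower at day 4 by 1.46-fold, with log2 levels of 9.41 and 8.85. None of these 5 reached 2-fold. The median log2 ratio was 0.78 over all 10 members and 0.35 over the 9 at 50 or more, against -0.01 over all genes at 50 or more.

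In Ly6Clow cells, the later, repair-associated subset, the same day comparison gave no call among the 7 members at 50 or more, beside 11.3% of 11560 genes. The 4 desaturases called in Ly6Chigh cells were still on the higher side at day 4, beside 49.3% of genes on that side: Fads1 had log2 levels of 9.42 and 10.21 (1.72-fold), Scd2 9.71 and 10.54 (1.76-fold), Fads3 4.96 and 5.82 (1.61-fold) and Scd1 3.54 and 5.47 (2.51-fold). Scd1 passed 2-fold but stayed under 50, at 44.3 normalised counts. Fads2 was at 1.46 and 1.83, near the bottom of the scale on both days, so no fold is given. Elovl6 was lower at day 4 (log2 levels 5.35 and 4.35, 1.67-fold), as was Fasn (8.84 and 8.41, 1.34-fold). Elovl5 had log2 ratios of opposite sign in the subsets, 0.35 in Ly6Chigh and -0.13 in Ly6Clow cells. The other 9 members had the same sign in both, beside 78.1% of 11129 genes. The fibroblast markers were also higher at day 4 in Ly6Clow cells (5 of 5 at 50 or more were called), and the 8 skeletal muscle markers sum to 1598 there against 310 at day 2. Their part in the desaturase ratios was not tested.

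**Figure D2:**
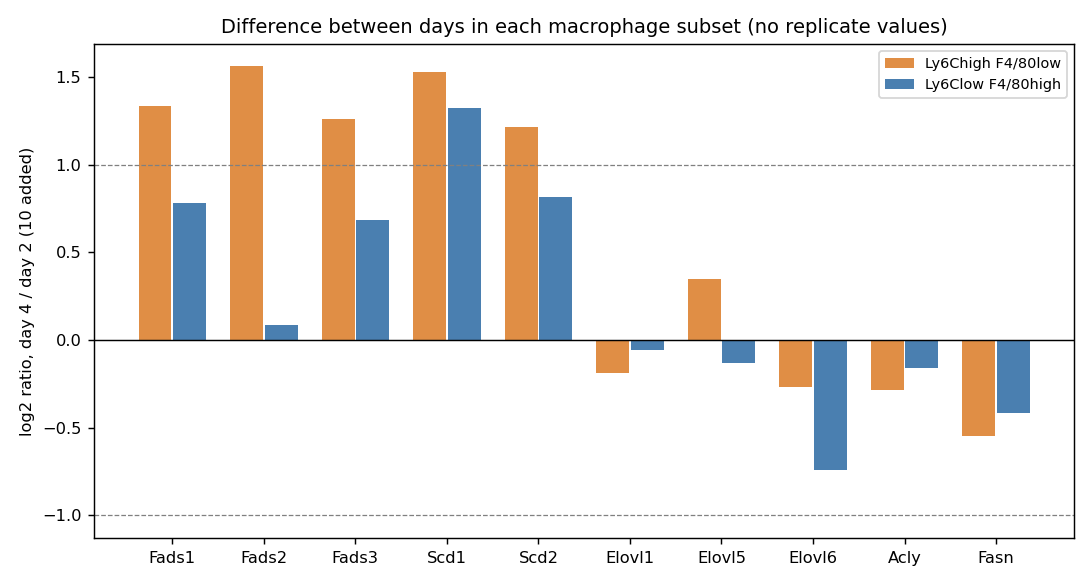
Log2 ratio of day 4 to day 2 (vertical axis, 10 added to each normalised count) for the 10 genes (horizontal axis) in Ly6Chigh (orange) and Ly6Clow (blue) cells, with dashed lines at 2-fold. Bars have no error because each group is 1 deposited value. The 5 desaturases stand above 0 in both subsets, from 1.22 to 1.56 in Ly6Chigh cells, and Elovl6, Acly and Fasn stand below 0 in both.

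Fads1 was the one member called between the subsets at day 2. Its log2 level was 9.42 in Ly6Clow and 7.90 in Ly6Chigh cells, a 2.79-fold ratio (log2 ratio 1.48), and at day 4 it was 10.21 and 9.27 (1.90-fold, log2 ratio 0.93). The day 2 ratio was the 1 call among 7 members at 50 or more, beside 11.4% of 11275 genes, 5.90% higher in Ly6Clow cells. No other desaturase differed by more than 1.31-fold at day 2: Scd2 had log2 levels of 9.71 and 9.32, Fads3 4.96 and 4.64, and Scd1 3.54 and 3.62. At day 4 Scd2 was level (10.54 and 10.55), and Fads3 (5.82 and 6.20) and Scd1 (5.47 and 5.77) were on the Ly6Chigh side. Fads2 was seen mainly in Ly6Chigh cells at day 4, at a log2 level of 4.75 against 1.83 in Ly6Clow cells (log2 ratio -1.44), under the limit for a call.

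Elovl6 and Fasn, 2 steps of palmitate and stearate synthesis, were on the Ly6Chigh side at both days. Elovl6 had log2 levels of 5.35 in Ly6Clow and 5.99 in Ly6Chigh cells at day 2 (1.44-fold lower) and of 4.35 and 5.67 at day 4 (2.01-fold lower). The day 4 ratio was the 1 call among 9 members at 50 or more, beside 7.21% of 11764 genes, 4.22% lower in Ly6Clow cells. It sits on both limits, with 51.0 normalised counts in Ly6Chigh cells, and is lost when 50 is added or 200 is asked. Fasn was 1.47-fold lower in Ly6Clow cells at day 2 (8.84 and 9.41) and 1.35-fold lower at day 4 (8.41 and 8.85). Elovl5 was 1.36-fold lower at day 2 (9.46 and 9.90) and 1.89-fold lower at day 4 (9.33 and 10.25). With groups rescaled to equal totals the Elovl5 ratio at day 4 passed 2-fold. Elovl1, at 10.27 and 10.14 at day 2 and 10.22 and 9.95 at day 4, and Acly, at 11.25 and 11.42 and then 11.09 and 11.13, differed by no more than 1.20-fold. The signs of the subset ratio were the same at both days for 7 of 10 members, beside 75.3% of 10990 genes. From Ly6Chigh cells at day 2 to Ly6Clow cells at day 4, the ends of the subset and day range, Fads1 differed 4.80-fold, Scd1 2.43-fold and Scd2 2.31-fold toward the later group, and Elovl6 2.41-fold and Fasn 1.97-fold toward the earlier one. Scd1 was under 50 in both groups, at 12.3 and 44.3 normalised counts. The share over all genes was not taken for this pair of groups.

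**Figure D3:**
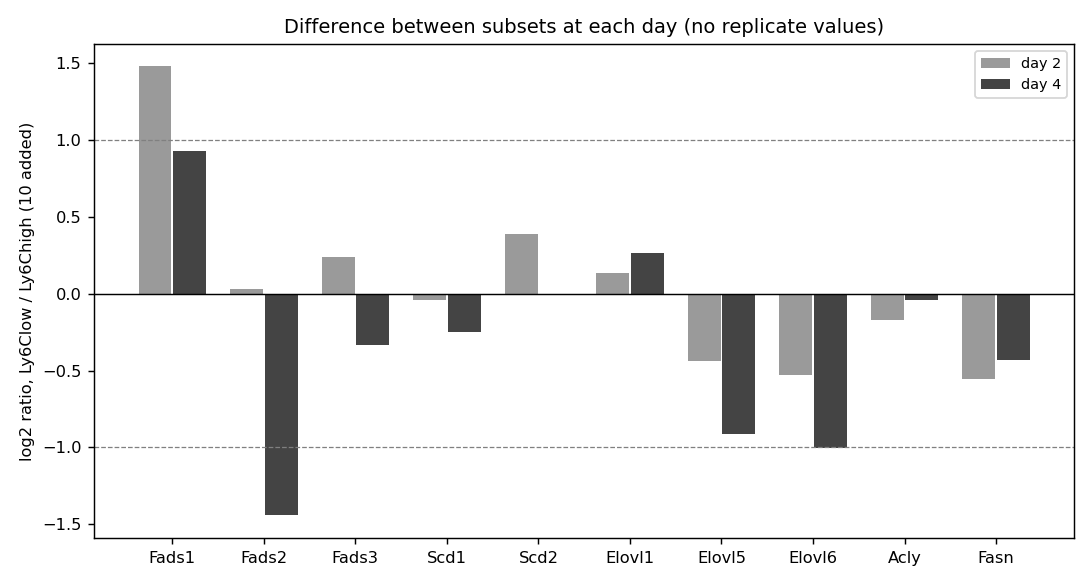
Log2 ratio of Ly6Clow to Ly6Chigh cells (vertical axis, 10 added) at day 2 (grey) and day 4 (dark) for the 10 genes (horizontal axis), with dashed lines at 2-fold and no error bars since each group is 1 deposited value. Fads1 stands above 0 at both days (1.48 and 0.93), and Elovl5, Elovl6 and Fasn stand below 0 at both. The Fads2 bar at day 4 passes the line but rests on 26.9 and 3.56 normalised counts.

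Neutrophils at day 1 had little transcript of most desaturases. Against the mean log2 level of the 4 macrophage groups, Scd2 was 21.1-fold lower (log2 level 5.32 in neutrophils, 9.32 to 10.55 in macrophages) and Fads1 19.4-fold lower (4.40 in neutrophils, 7.90 to 10.21 in macrophages). Fasn was 3.39-fold lower, at 7.04 against 8.41 to 9.41. These 3 were the calls among 6 members at 50 or more, beside 59.7% of 12209 genes, 29.3% lower in neutrophils, and each passed 2-fold against all 4 groups. Elovl6 (0.41 in neutrophils), Fads3 (2.07), Scd1 (3.01) and Fads2 (0.74) were too low in neutrophils and on average in macrophages to be called. Acly at 11.58, Elovl1 at 11.12 and Elovl5 at 10.50 were the high members in neutrophils, with log2 ratios of 0.36, 0.97 and 0.76 as deposited. Their direction depends on the scaling: the neutrophil column sums to 26.0 M normalised counts (M, mega) and the macrophage columns to between 11.9 and 12.8 M, and with equal totals the ratios of these 3 are -0.70, -0.09 and -0.30. The same rescaling moves the median over all genes from 0.08 to -1.03 and the share of calls that are higher in neutrophils from 50.9% to 21.4%. Scd2 (-5.27), Fads1 (-5.03) and Fasn (-2.75) remain below that median with equal totals. Cell type and day cannot be told apart in this comparison.

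In cultured macrophages all 10 members passed the limit on low values, and Fads2 was the lowest, with log2 levels from 5.32 to 5.92. The 6 libraries correlate at r of 0.984 to 0.989 across genes, which are not independent replicates, and low values step as if 9.05 M to 14.3 M reads had been counted. Per kilobase, untreated cells had the order Elovl1 (681 ± 39.1 normalised counts, SD, n = 3), Acly (541 ± 25.1), Fads3 (472 ± 22.9), Elovl5 (242 ± 7.39), Fads1 (229 ± 18.5), Fasn (176 ± 6.12), Scd2 (134 ± 17), Scd1 (61.4 ± 2.66), Elovl6 (24.9 ± 1.91) and Fads2 (17.1 ± 1.98). Elovl5 and Fads1 are neighbours within their spread. Fads3 was at place 3 of 10 here and at place 7 or 8 in each of the 5 muscle groups, in tables that were normalised separately. The cultures also carried fibroblast transcripts, with the 8 markers summing to between 38716 and 60500 normalised counts a library, and untreated and RvD2 libraries overlapped in this sum (43220 to 50508 untreated). Of the 8 markers, 6 or 7 reached 50 in a library, and Lum was at a log2 level of at most 1.09. The part of the fibroblast transcripts in the levels of the members was not tested.

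**Figure D4:**
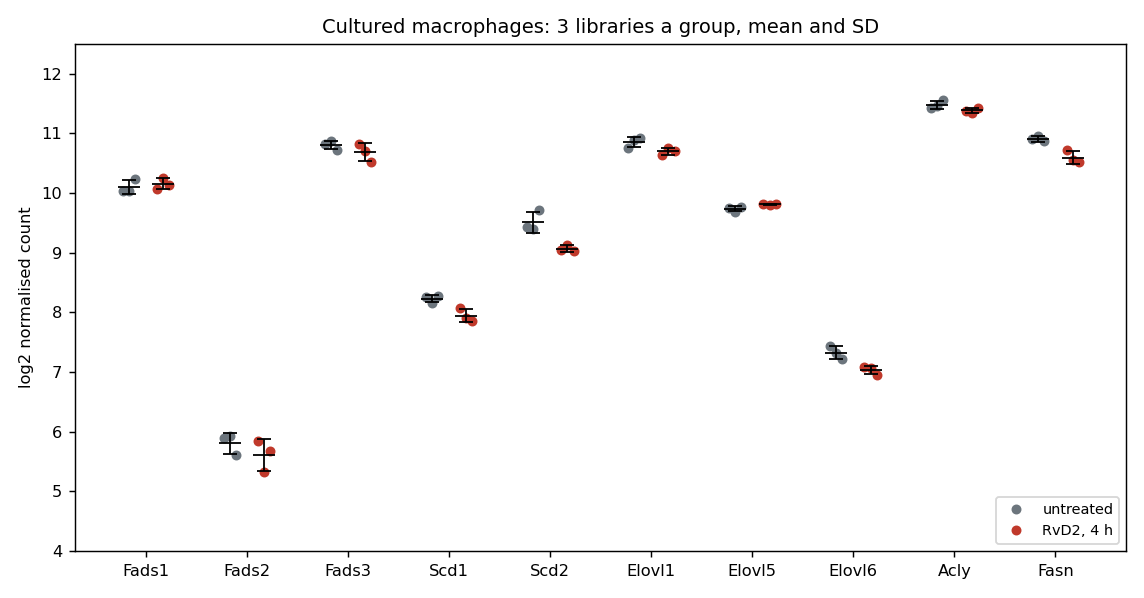
Log2 normalised count (vertical axis, which starts at 4) of the 10 genes (horizontal axis) in 3 untreated (grey) and 3 RvD2 (red) libraries of cultured macrophages. Points are libraries, and bars are the mean and SD. All RvD2 points lie below all untreated points for Scd1, Scd2, Elovl6 and Fasn.

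After 4 h of RvD2 none of the 10 members passed limma's adjusted p of 0.05, beside 1.86% of 15239 genes. Scd2 and Fasn came closest to it. Scd2 had log2 levels of 9.43, 9.39 and 9.72 in untreated and 9.04, 9.13 and 9.03 in RvD2 libraries. Every RvD2 library was below every untreated one. The log2 change was -0.45 (SE 0.09, 95% interval -0.65 to -0.24), or -26.6%, with a limma adjusted p of 0.0505, just outside the threshold. Fasn, the synthase, had 10.90, 10.96 and 10.87 in untreated and 10.72, 10.55 and 10.51 in RvD2 libraries. These did not overlap either, and the log2 change was -0.32 (SE 0.07, interval -0.47 to -0.17; -19.7%; limma adjusted p 0.0533). Without the first RvD2 library the adjusted p of Fasn was 0.0201, and over the 13 alternatives of the test it ran from 0.0101 to 0.190, with 4 under 0.05. That of Scd2 ran from 0.0148 to 0.177, also with 4 under 0.05. In both genes the lowest value came with the replicate number as a block, and the numbers were not taken to pair the libraries.

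Scd1 and Elovl6 had changes of the same sign. Scd1 had log2 levels of 8.26, 8.16 and 8.27 in untreated and 8.08, 7.91 and 7.85 in RvD2 libraries (log2 change -0.28, SE 0.08, limma adjusted p 0.149). Elovl6, between Fasn and the Scd enzymes in the pathway, had 7.44, 7.31 and 7.22 against 7.08, 7.06 and 6.96 (-0.29, SE 0.10, limma adjusted p 0.198). In both genes the groups did not overlap. Elovl1 had 10.76, 10.89 and 10.92 against 10.64, 10.76 and 10.70, and here the groups overlapped (-0.15, SE 0.06, limma adjusted p 0.277). Cdc20, whose exons overlap those of Elovl1 on the other strand, was lower with RvD2 by a log2 change of -0.87 (SE 0.11, limma adjusted p 0.00813), from 9.16, 9.09 and 9.29 to 8.55, 8.17 and 8.21. Elovl1 shares 0.139% of its 50-base stretches with Cdc20, and the part of Cdc20 in the Elovl1 value was not tested. The genes lower at an unadjusted limma p under 0.05 were these 5, Scd2, Fasn, Scd1, Elovl6 and Elovl1, beside 15.6% of all genes in either direction. Groups did not overlap for 5 of 10 members, 4 lower and Elovl5 higher, beside 21.0% of all genes (11.7% lower, 9.29% higher). An exact permutation test of 3 against 3 libraries cannot give a p under 0.1.

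For the other 5 members the 95% interval of the change included 0. Fads1 had log2 levels from 10.04 to 10.24 in untreated and from 10.07 to 10.25 in RvD2 libraries, with a change of 0.05 and a 95% interval of -0.12 to 0.22. Elovl5 had 9.75, 9.69 and 9.77 against 9.82, 9.80 and 9.81 (change 0.07, interval -0.05 to 0.19, limma adjusted p 0.584). Fads2 ranged from 5.61 to 5.92 in untreated and from 5.32 to 5.84 in RvD2 libraries (-0.19, interval -0.60 to 0.21). Fads3 had a change of -0.12 (interval -0.30 to 0.07) and Acly, the source of acetyl-CoA, of -0.09 (interval -0.21 to 0.03). The intervals leave room for a fall of Fads2 larger than that estimated for Scd2, so the wide spread of this low gene limits what can be said of it. The median log2 change of the 10 members was -0.17, with 8 of 10 below 0, beside a median of -0.003 over all genes tested.

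**Figure D5:**
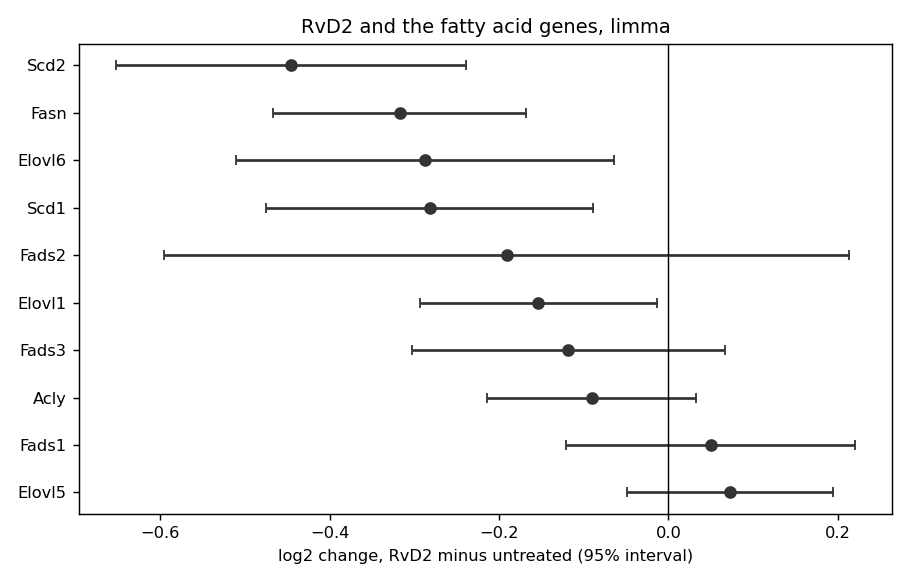
Log2 change with RvD2 (horizontal axis, RvD2 minus untreated) of the 10 genes (vertical axis, in order of the change), as the limma estimate with its 95% interval, 3 libraries a group. The intervals of Scd2, Fasn, Elovl6, Scd1 and Elovl1 lie below 0, and none of the 10 passed the adjusted threshold.

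Genes that supply or regulate these enzymes were read from fixed lists. Their counts stand beside the shares of all genes called, 11.4% between subsets at day 2 and 7.21% at day 4. Between days these shares were 13.4% in Ly6Chigh and 11.3% in Ly6Clow cells. Of the SREBP and LXR list, 11 of 13 genes could be compared between subsets at day 2, and 2 were called, both lower in Ly6Clow cells: Insig1, which holds SREBP in the endoplasmic reticulum (log2 levels 9.01 and 10.34, log2 ratio -1.31), and Srebf2, the sterol-regulating SREBP (10.33 and 11.43, -1.09). At day 4 the 1 call was Rxra, the partner of LXR, higher in Ly6Clow cells (11.39 and 10.00, 1.38). Srebf2 was also lower at day 4 than at day 2 in Ly6Chigh cells (-1.15), and no gene of the list was called between days in Ly6Clow cells. Srebf1 itself stayed between 10.09 and 10.37 in the 4 macrophage groups and was at 8.59 in neutrophils. This is a gene-level value and does not tell SREBP-1c from other isoforms of Srebf1. With RvD2, 0 of 11 list genes passed limma's adjusted threshold, and 3 had an unadjusted p under 0.05, beside 15.6% of all genes. Insig1 had a log2 change of -0.73 (SE 0.17, limma adjusted p 0.0783), and Srebf1 had -0.11 (SE 0.05, limma adjusted p 0.391).

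Of the malonyl-CoA and NADPH list, Idh1, a cytosolic source of NADPH, was called higher in Ly6Clow cells at both days (log2 ratios 1.30 and 1.07) and Mcat, of mitochondrial fatty acid synthesis, at day 2 (1.11), the only calls of 8 genes compared at each day. Acss2, which makes acetyl-CoA from acetate, was the 1 of 8 called between days, higher at day 4 in Ly6Clow cells (1.20). Acaca, the carboxylase that feeds Fasn, went with Fasn in order, from 8.17 in Ly6Chigh cells at day 2 down to 7.81 in Ly6Clow cells at day 4 and 6.47 in neutrophils, and no ratio among macrophages reached 2-fold. In neutrophils 4 of 8 genes of this list were lower, among them Idh1 (-3.65), and 2 higher, and of the SREBP and LXR list 3 of 11 were lower and 2 higher, all with the values as deposited. The neutrophil counts of all lists stand beside 59.7% of 12209 genes called, 29.3% lower in neutrophils. The RvD2 change of Acaca was -0.18 (SE 0.08, limma adjusted p 0.348). The elongation cycle list also holds electron donors, the Cyb5 genes, and its other enzymes complete each round after an elongase. It had 0 of 8 genes called in any of the 4 macrophage comparisons. Ptplad2 came closest, higher at day 4 with log2 ratios of 0.986 in Ly6Chigh and 0.997 in Ly6Clow cells. The list medians there were -0.15 and -0.19. In neutrophils 5 of 8 were lower, among them Ptplad1 (-2.45), Cyb5r3 (-2.14) and Hsd17b12 (-1.97), and 2 higher as deposited, Cyb5r1 (1.63) and Ptplb (1.45), which pass 2-fold by less than the equal totals move the median of all genes. Of 9 other desaturases and elongases, Fads6 was higher at day 4 in Ly6Chigh cells (1.16), the 1 call of 3 compared. In neutrophils Elovl2 (2.43) and Elovl7 (2.39) were higher and Degs2 (-2.83) lower as deposited, of 4 compared. The list gave 0 calls between subsets or between days in Ly6Clow cells. With RvD2, limma called 0 genes of these 3 lists, and 2 of 9 of the malonyl-CoA and NADPH list, 2 of 9 of the elongation cycle list and 1 of 4 of the last list had an unadjusted p under 0.05, beside 15.6% of all genes.

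The 3 members with the widest range over the macrophage groups were matched to the genes with the most alike profile over the 5 muscle groups, by the mean absolute difference of centred log2 levels among 12837 genes. For Fads2 (range 3.43) these were Cdh11 (0.307), Ikzf3 (0.357) and Tie1 (0.399). For Fads1 (range 2.31) they were Wdr34 (0.119), Kank2 (0.132) and Tfap4 (0.135). For Scd1 (range 2.22) they were Gnb4 (0.143), Gm5431 (0.168) and Apobec3 (0.185). Over 5 points many genes come close, and these values are a description. Tie1, a receptor of endothelial cells, is itself on the endothelial marker list, whose 5 genes sum to 1017 normalised counts in Ly6Chigh cells at day 4 and to between 237 and 458 in the other macrophage groups. Among the macrophage groups, the fibroblast (24802), dendritic cell (1787) and T and NK cell (709) sums are also highest there. The part of any of these cells in the Fads2 level was not tested.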

How the data were processed

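Poly-A RNA of sorted muscle leukocytes and cultured macrophages was sequenced, per the labels' protocols, from TruSeq libraries. TopHat2 2.0.7, DESeq and the build mm10 are named in the submitters' processing notes. The authors deposited log2 values of normalised counts, with those under 1 set to 0: 1 column for each of the 6 cultured libraries, and 1 for each of the 5 muscle groups, a mean of log2 values. The 2 muscle cells that hold dates were treated as missing. Samples were grouped by their labels. Cultured libraries were compared with limma 3.58.1 (R 4.3.3), with a trend, two-sided, over the 15239 genes whose normalised counts averaged 10 or more, Benjamini-Hochberg adjusted at a threshold of 0.05. This was checked on simulated data. Muscle groups were compared by ratio after adding 10, called at 2-fold with the higher group at 50 or more. P-values measure only the spread between samples, which may be technical. Exon lengths came from GENCODE M21, which holds 95.3% of the identifiers. All 10 members were named in each comparison, with up to 4 called genes of each pathway list, Srebf1, Acaca, Insig1 and Lpcat3, and the 3 most alike genes for 3 members. Of the acyl-CoA synthetases and acyltransferases, all genes called between days in Ly6Clow cells were named. The members and lists were chosen with earlier results of these data known. Other pseudocounts, limits, scalings and designs and each library left out were tried as alternatives.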

Additional observations from a re-analysis of the deposited data

How the results depend on the processing

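With RvD2, 0 members were called by limma, but 2 (Scd2 and Fasn) with a mean count of at least 50 or with libraries rescaled to equal medians, 1 (Scd2) with 10 added, and between 0 and 1 (Fasn, without RvD2 replicate 1) when each library was left out. Over all genes, 283 calls became 137 with no filter and 49 without the trend, and leaving out 1 library gave 79 to 290: 123, 106 and 140 without untreated replicates 1, 2 and 3, and 290, 90 and 79 without RvD2 replicates 1, 2 and 3. With the replicate number as a block, 2 members (Scd2, adjusted p 0.0148, and Fasn, 0.0101) and 1066 genes were called. Libraries sharing a number had deviations correlating at r of 0.29, 0.02 and 0.05, so the numbers were not taken to pair them, and not every library correlated best with its own number. In muscle, the 1 member called between subsets at day 4 became 0 with 50 added or 200 asked of the higher group, and 2 with no limit or with equal totals. The 4 members called between days in Ly6Chigh cells became 2 with 50 added or 200 asked, and the 0 in Ly6Clow cells became 1 with no limit. The 3 called in neutrophils became 5 with no limit or equal totals. Counts over all genes moved from 1281 to 830 (50 added) and 785 (200 asked) between subsets at day 2, from 848 to 552 and 463 at day 4, and from 1558 to 1033, 854 and 2346 (no limit) between days in Ly6Chigh cells. Where settings changed a count, the cause was not tested, except that a limit of its own construction removes or admits low genes. No member changed sign past a threshold. With equal totals, 32.8% of the day 4 subset calls were higher in Ly6Clow cells, against 41.4%. Depth limits Fads2 most, at 1.67 to 26.9 normalised counts in muscle, and the muscle values carry no replicate error.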

Other observations

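Genes that activate fatty acids or attach them to phospholipids were read from a fixed list. Of its acyl-CoA synthetases and acyltransferases, 4 of 11 genes compared were called higher at day 4 in Ly6Clow cells and 1 lower, beside 11.3% of all genes called, and the median log2 ratio of the 11 was 0.08. Lpcat2, which makes platelet-activating factor and remodels phosphatidylcholine, had log2 levels of 8.97 at day 2 and 11.79 at day 4 (log2 ratio 2.79). Agpat3 had 9.34 and 10.47 (1.12), Acsl3 6.30 and 7.52 (1.12) and Lpcat1 8.81 and 9.91 (1.08). Mboat1, a lysophospholipid acyltransferase, had 6.03 and 4.79 (2.01-fold lower), close to the 2-fold limit. In Ly6Chigh cells Lpcat2 (1.64), Agpat3 (1.13) and Lpcat1 (1.09) were higher at day 4 and Mboat1 (-1.70) lower, beside 13.4% of all genes called. Lpcat3, which puts arachidonate into phospholipids, stayed between 9.31 and 9.72 in the 4 macrophage groups, and its RvD2 change was 0.08 (SE 0.07, limma adjusted p 0.650). No gene of this list was called between the subsets at either day. With RvD2, limma called 0 of 11, and 1 had an unadjusted p under 0.05, beside 15.6% of all genes.

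Of the peroxisomal chain-shortening list, which trims very long chains, Abcd2, a peroxisomal transporter of fatty acyl-CoA, was the 1 of 7 called between subsets at day 2 (log2 levels 8.25 in Ly6Clow and 6.35 in Ly6Chigh cells, log2 ratio 1.78) and the 1 called between days in Ly6Chigh cells (1.97). In cultured macrophages Abcd2 had a log2 change with RvD2 of 0.62 (SE 0.13, limma adjusted p 0.0551), which did not pass the threshold. Of mitochondrial beta-oxidation, Hadh was the 1 of 11 genes called between subsets at day 2, higher in Ly6Clow cells (9.80 and 8.13, log2 ratio 1.64). The shares of all genes called were 11.4% between subsets at day 2 and 13.4% between days in Ly6Chigh cells. In neutrophils 7 of 11 genes of that list were lower and 1, the carnitine carrier Slc25a20, was higher (log2 ratio 2.40 as deposited). Over all genes 59.7% were called in that comparison, 29.3% lower in neutrophils. With 1 deposited value a group, none of the muscle differences could be tested.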
